A study of Mus musculus with 6 samples.

Results

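The transcripts described here are those of 42 genes that act in the G2 phase and in mitosis, taken by symbol from a bulk RNA-seq count table. They were chosen for their known roles, but with earlier results of these data known. They cover the proliferation mark Mki67 and the transcription factor Foxm1, cyclins and Cdk1, mitotic kinases, the chromosomal passenger complex and the spindle checkpoint. The others are partners of the anaphase-promoting complex, the kinetochore, kinesins, cytokinesis factors, and condensin with topoisomerase. All 42 were found in the table, and all 42 were among the 14756 genes with enough counts to be tested over the 6 libraries.

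The libraries were made from polyadenylated RNA of C57BL/6 mouse samples whose labels name mesenchymal stromal cells of the bone marrow, with 3 libraries of the group labelled Hes1KO and 3 of the group labelled WT. Hes1 encodes a transcriptional repressor downstream of Notch signalling. Per the labels' protocols, mice heterozygous for a floxed Hes1 allele (Hes1fl/+) were crossed with Prx1Cre mice, in which the Prx1 enhancer drives Cre recombinase in early limb bud and part of the craniofacial mesenchyme. Every sample, WT included, carries these protocols, which add more than 10 rounds of backcrossing. The labels call the animals of the first group Hes1 knockout and those of the second wild type, and give no age, drug or number of deleted alleles. They also do not state whether replicates were separate animals or cultures. The p-values therefore speak only for the spread among these libraries, which may be technical.

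As background, a cell that has copied its DNA enters mitosis when Cdk1, bound to cyclin A or B, is freed of inhibitory phosphates by Cdc25 phosphatases. Aurora and Polo-like kinases then build the spindle, the checkpoint holds the cell until each kinetochore is attached, and the anaphase-promoting complex ends mitosis by marking cyclin B and securin for destruction. Most of these genes are transcribed late in the cycle. Their promoters often carry a cell cycle homology region (CHR), bound by the MuvB core of the DREAM complex in resting cells and by B-Myb and Foxm1 with MuvB in cycling ones, together with CCAAT boxes bound by NF-Y. In bone marrow, cycling cells are mostly blood progenitors.

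The promoters of the members that the results below turn on are shown first, because genes of this kind are known for shared promoter motifs. Each line is the stretch of 250 bases before the annotated transcription start, 5′ to 3′ on the gene's own strand, from the RefSeq promoter table of GRCm38.p6. Bub3 has 2 windows in that table, and the first is shown. Capitals mark TTTGAA or TTTAAA, the usual CHR letters, and CCAAT, each searched on both strands, so that TTCAAA and ATTGG are capitalised too.
Ccnb2 (chr9:70421555-70421804, minus strand): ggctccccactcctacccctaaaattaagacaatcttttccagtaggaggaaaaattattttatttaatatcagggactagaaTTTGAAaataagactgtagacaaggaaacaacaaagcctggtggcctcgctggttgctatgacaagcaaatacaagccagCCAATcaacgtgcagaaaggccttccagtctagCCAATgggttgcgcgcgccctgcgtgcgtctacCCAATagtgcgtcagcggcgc
Cdc25b (chr2:131186698-131186947, plus strand): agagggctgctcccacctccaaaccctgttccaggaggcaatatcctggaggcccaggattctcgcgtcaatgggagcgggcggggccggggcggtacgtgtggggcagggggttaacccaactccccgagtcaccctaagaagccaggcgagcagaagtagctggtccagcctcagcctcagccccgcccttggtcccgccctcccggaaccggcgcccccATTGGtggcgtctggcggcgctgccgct
Birc5 (chr11:117848987-117849236, plus strand): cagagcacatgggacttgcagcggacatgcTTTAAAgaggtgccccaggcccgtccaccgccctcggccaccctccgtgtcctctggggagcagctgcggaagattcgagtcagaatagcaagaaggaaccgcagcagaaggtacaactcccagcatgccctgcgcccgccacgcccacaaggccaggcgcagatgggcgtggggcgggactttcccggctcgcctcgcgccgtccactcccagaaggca
Bub3 (chr7:131560120-131560369, plus strand): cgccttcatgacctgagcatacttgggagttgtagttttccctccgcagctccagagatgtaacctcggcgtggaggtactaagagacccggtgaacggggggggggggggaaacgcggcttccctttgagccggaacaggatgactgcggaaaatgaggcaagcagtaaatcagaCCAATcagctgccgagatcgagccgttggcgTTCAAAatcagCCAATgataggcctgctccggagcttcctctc
Mad2l1 (chr6:66534971-66535220, plus strand): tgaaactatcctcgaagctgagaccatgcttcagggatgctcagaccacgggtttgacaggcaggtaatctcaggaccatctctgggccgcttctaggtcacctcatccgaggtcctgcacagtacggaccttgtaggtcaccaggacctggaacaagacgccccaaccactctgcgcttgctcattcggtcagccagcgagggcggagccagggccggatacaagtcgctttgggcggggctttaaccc
Ube2c (chr2:164769679-164769928, plus strand): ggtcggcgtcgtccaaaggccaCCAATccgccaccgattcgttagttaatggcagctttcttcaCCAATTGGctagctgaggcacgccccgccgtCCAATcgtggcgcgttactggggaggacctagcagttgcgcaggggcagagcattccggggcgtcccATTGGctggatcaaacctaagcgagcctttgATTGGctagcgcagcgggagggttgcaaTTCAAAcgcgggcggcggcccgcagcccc
Ccnb2 held 1 TTTGAA and 3 CCAAT boxes, and Ube2c, the most motif-rich of the 6, held 7 matches. Mad2l1 held none of these letters in its stretch.

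Among the 42 members, 34 had an entry in that table, with 37 windows of 300 bases (250 before the start and 50 after it). TTTGAA in either orientation was present in 78.4% of the member windows and in 17.9% of all 32851 windows of the table. CCAAT was present in 83.8% against 37.4%. TTTAAA, the less common form, was present in 24.3% against 13.2%. A window with CCAAT and either CHR form made up 75.7% of the member windows and 10.7% of all windows. These are matches of letters, with 2 of the matches in member windows overlapping another, and no binding was measured here.

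The libraries differed widely in depth and in the cells they appeared to hold. The Hes1 KO libraries had 20563116 to 22131465 counts, WT replicates 2 and 3 had 5812598 and 12109170, and WT replicate 1 had 66167, so that a single count there was worth 15.1 CPM, the counts per 1000000 of the library's total. Its values are therefore given apart. Counts of genes that passed are given with all 6 libraries and with the 5 deeper ones (the 5-library fit). Log2 fold changes of single genes are from the 5-library fit unless another is named. Hes1 was counted 185, 220 and 255 times in Hes1 KO replicates 1 to 3 (10.4 ± 2.02 CPM, SD, n = 3). It was counted 0 times in WT replicate 1, and 310 and 345 times in WT replicates 2 and 3 (53.3 and 28.5 CPM). Its log2 fold change was -2.12 with 6 libraries (SE 1.01, edgeR adjusted p = 0.364) and -2.55 in the 5-library fit (edgeR adjusted p = 0.0294). Defining stromal transcripts were scarce: Prrx1 reached 2, 0 and 1 counts in the Hes1 KO and 0, 1 and 0 in the WT libraries. Together, 17 stromal markers reached 145 to 293 CPM in Hes1 KO replicates 1 to 3. They reached 200 and 63.9 CPM in WT replicates 2 and 3. WT replicate 1 gave 952 CPM for that list, from 63 counts, 61 of them of Runx2. Runx2 made up most of that sum in the other libraries too. It reached 261, 128 and 187 CPM in Hes1 KO replicates 1 to 3. In WT replicates 2 and 3 it reached 152 and 54.3 CPM. In the table as a whole, 12 mature neutrophil markers summed to 44793, 131452 and 56234 CPM in Hes1 KO replicates 1 to 3 and 5018, 13470 and 337 CPM in WT replicates 1, 2 and 3, and 11 erythroid markers reached 424508 CPM in WT replicate 3 against 15.1 to 3167 CPM elsewhere. In such bulk samples, fewer cells of a type cannot be told apart from less RNA per cell.

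Transcripts of the 42 genes were present in every library, and their summed level separated single libraries rather than the groups. The sum was 8543, 4027 and 8222 CPM in Hes1 KO replicates 1 to 3 replicates 1, 2 and 3 and 7487 and 2329 CPM in WT replicates 2 and 3. WT replicate 1 gave 5365 CPM from 355 counts (Wilson 95% interval 4837 to 5951, counting error only). The groups overlapped: Hes1 KO replicate 2 was below WT replicates 1 and 2, and WT replicate 3 was the lowest. By scaled CPM (CPM divided by the TMM factor of the 5-library fit) the groups overlapped too, in another order. The scaled sum was 6767, 3821 and 6639 in Hes1 KO, with replicate 2 the lowest of all, and 5485 and 5238 in WT replicates 2 and 3. Without Cdc25b and Ube2c, described below, WT replicate 3 was again the lowest on that scale, at 2497. Markers of granulocyte and monocyte progenitors (6 genes, among them Mpo and Elane) summed to 6176, 2368 and 5422 CPM in Hes1 KO replicates 1 to 3 and in WT replicates 1, 2 and 3 to 6907, 2694 and 39.97 CPM. Among the Hes1 KO libraries, replicate 2 was the lowest in both sums and the highest in mature neutrophil markers; the part of these cells in the member levels was not tested.

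**Figure D1:**
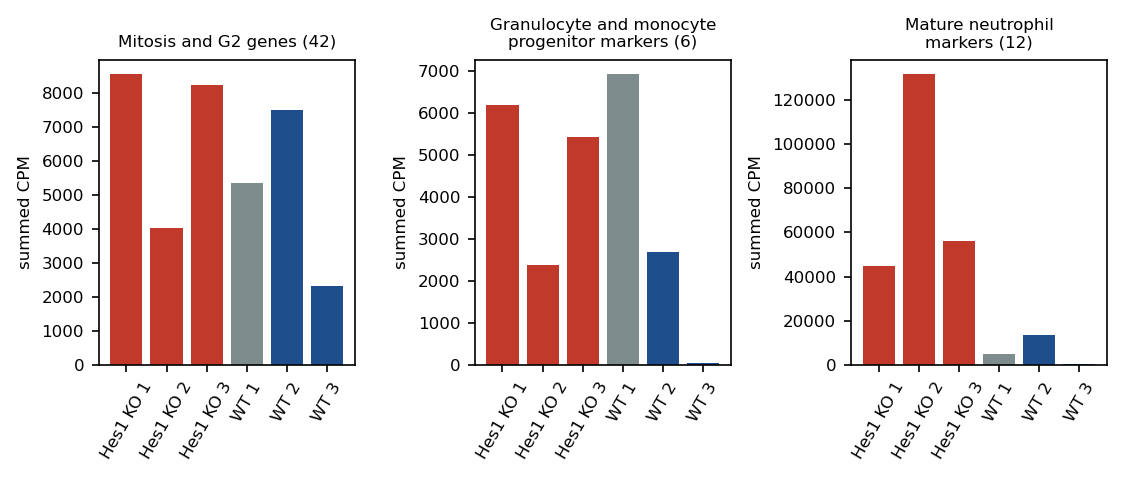
Summed CPM (linear axes from 0) of the 42 mitosis and G2 genes, 6 granulocyte and monocyte progenitor markers and 12 mature neutrophil markers, 1 bar per library, red for Hes1 KO, blue for WT and grey for the shallow WT replicate 1. Hes1 KO replicate 2 had the lowest member sum of its group, 4027 CPM, and the highest neutrophil sum, 131452 CPM.

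Within the Hes1 KO group, replicates 1 and 3 were close to each other. Replicate 2 stood below both for 42 of 42 members by CPM and for 40 by scaled CPM. The ratio of replicate 3 to replicate 1 had a median of 1.00 over the members, from 0.770 (Smc2) to 1.71 (Cdc25b). The ratio of replicate 2 to the mean of the other two had a median of 0.476. It was lowest for Cenpf (0.347), a large kinetochore protein, and highest for Cenpa (0.811), the centromeric histone H3 variant. WT replicate 3 was the lowest of the 5 deeper libraries for 40 of 42 members by CPM. The exceptions were Cdc25b and Ube2c, which were highest there. Erythroid markers took 424508 CPM of that library, which lowers the CPM of its other genes. The shares of all genes with these orders of libraries are not given here, so the counts do not set the members apart. By scaled CPM, WT replicate 3 was below the Hes1 KO mean for all of the other 40. Hes1 KO replicate 2 was lower still on that scale for members such as Mki67 (464 against 686) and Cenpf (44.3 against 51.1).

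**Figure D2:**
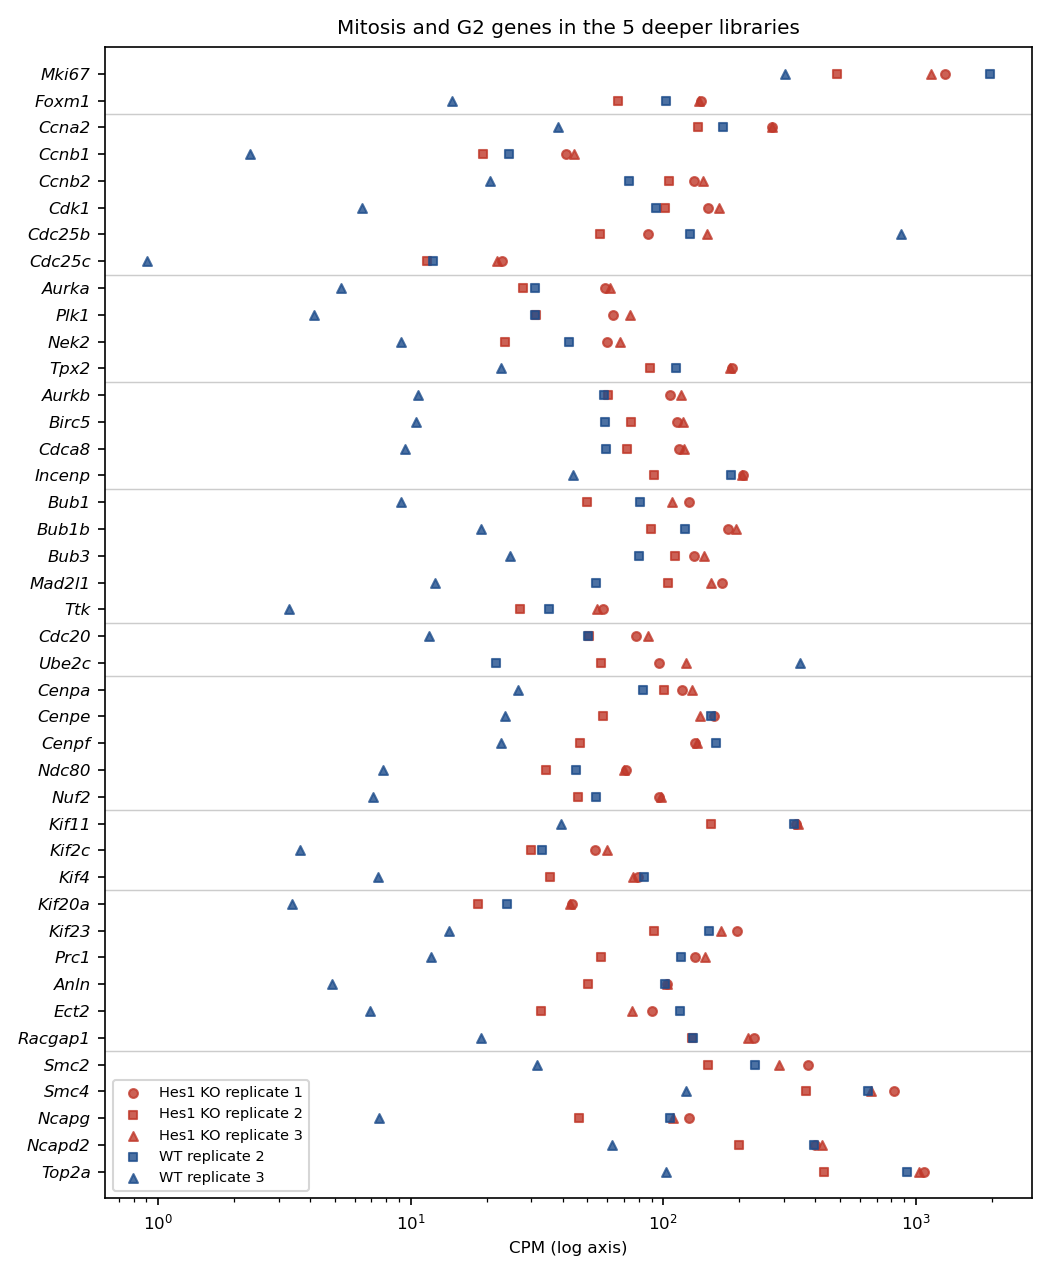
CPM (log axis) of each of the 42 members in the 5 deeper libraries, grouped by role, red for Hes1 KO and blue for WT, with a symbol for each replicate. WT replicate 3 (blue triangles) lies at the far left for 40 members and at the far right for Cdc25b and Ube2c, and Hes1 KO replicate 2 (red squares) is the leftmost red symbol in each row.

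With all 6 libraries, 0 of the 42 members passed an adjusted p of 0.05 (edgeR quasi-likelihood test with Benjamini-Hochberg adjustment), as did 0% of the 14756 genes tested. At an unadjusted p below 0.05 there were 7 members and 2200 genes. DESeq2 called 0 members and 793 genes (5.37%), and limma-voom called 0 of either. The log2 fold change was above 0 for 38 of 42 members, with a median of 0.92 over the members and 0.03 over all genes.

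In the 5-library fit, 4 members rose in Hes1 KO and 0 fell: the cyclin gene Ccnb2, the passenger gene Birc5, and the checkpoint genes Bub3 and Mad2l1. That is 9.52% of the members called higher, beside a background of 7.44% of 16190 genes called higher and 8.09% called lower. The share of members called is thus near that of all genes. Their log2 fold changes were above 0 for 39 of 42, with a median of 0.91, against 50.7% and 0.02 over all genes. Marker lists of other cells differed between the groups in the same fit. Of 12 macrophage markers 10 were tested, all with log2 fold changes above 0, and 6 rose. C1qb and C1qc, with at most 9 and 11 counts in a library, were not tested. Of 11 B lineage progenitor markers all were below 0 and 3 fell. Macrophage markers summed to 1709 to 2155 CPM in the Hes1 KO libraries, while WT replicates 1, 2 and 3 had 4156, 454 and 123 CPM. B lineage markers summed to 1118 to 1873 CPM in Hes1 KO, while these WT libraries had 227, 6006 and 3261 CPM. Their part in the member levels was not tested. With any 1 Hes1 KO library also left out, and with scaling to library size alone, 0 members passed, and so did 0 of all genes tested in each of these 4 fits. With a Hes1 KO library left out, the log2 fold change was 0.98 to 1.08 for Ccnb2, 1.22 to 1.37 for Birc5, 0.84 to 0.93 for Bub3 and 1.69 to 1.82 for Mad2l1. On these 5 libraries DESeq2 called 9 members higher and 1 lower (background 12.7% and 18.2%). Without WT replicates 1 and 2, edgeR called 28 higher and 2 lower (background 14.6% and 14.3%), and without WT replicates 1 and 3 it called 7 higher and 0 lower (background 17.1% and 18.4%), each with a lone WT library that is assumed to vary like the Hes1 KO ones.

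**Figure D3:**
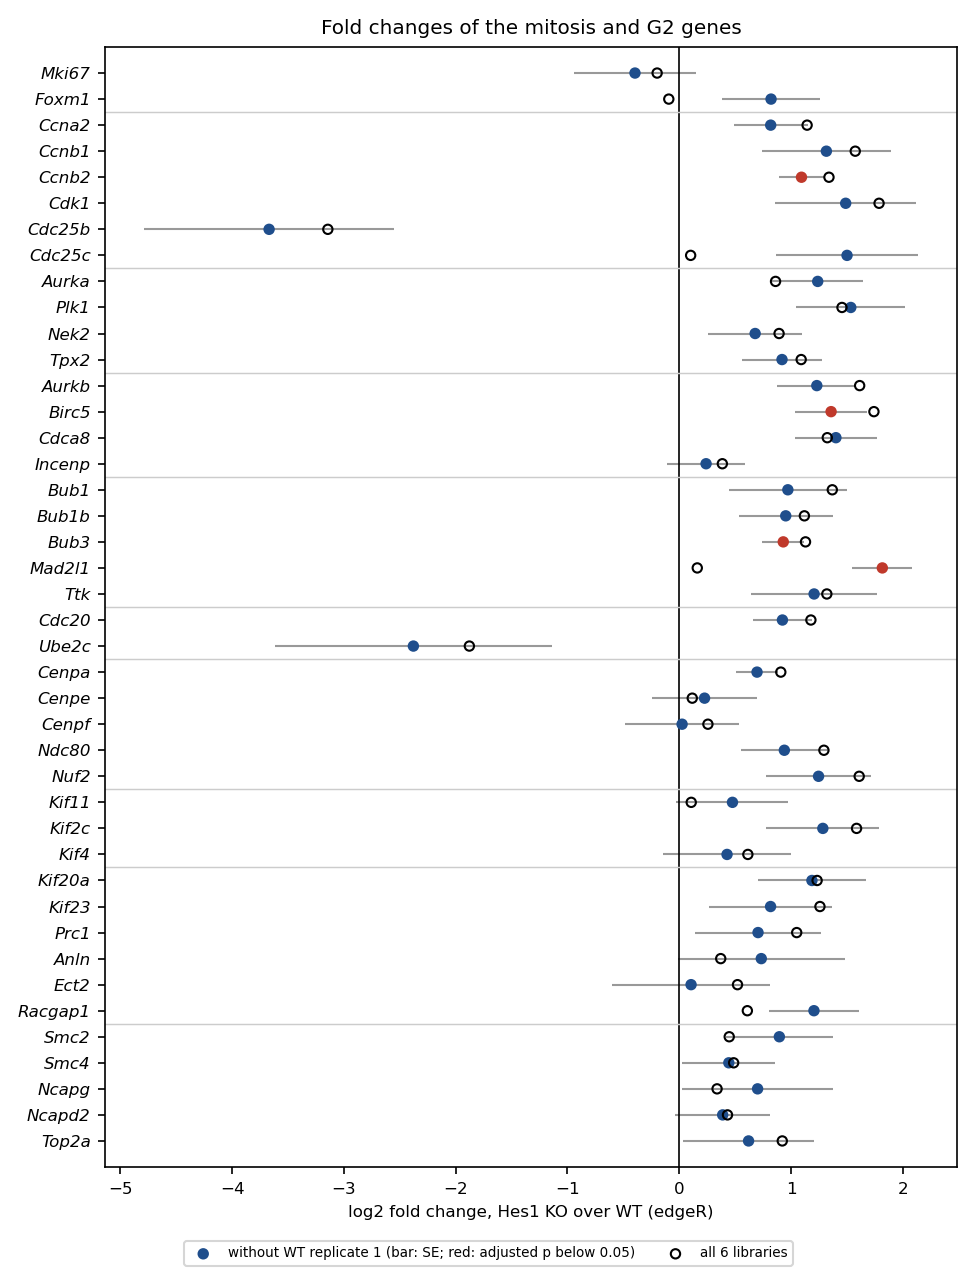
Log2 fold change of Hes1 KO over WT for each member from edgeR, filled circles for the 5-library fit with bars of 1 SE, open circles for all 6 libraries, and red for an adjusted p below 0.05. The 4 red circles are Ccnb2, Birc5, Bub3 and Mad2l1, and Cdc25b and Ube2c lie far to the left.

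By range, all 3 Hes1 KO libraries were above WT replicates 2 and 3 for 10 members by CPM (23.8% of members, against 35.1% of all genes). By scaled CPM it was 18 members (42.9%, against 31.2% of all genes). With all 6 libraries it was 11 by scaled CPM (26.2%, against 22.6%). Of the 42, 0 had all Hes1 KO libraries below the WT libraries on these 3 scales, against 7.54%, 24.5% and 5.14% of all genes in the same order. The TMM factor of WT replicate 3 was 0.445, against 1.05 to 1.37 in the other 4 libraries of that fit, so scaling raised its levels relative to theirs.

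Mki67, the nuclear antigen that coats mitotic chromosomes, and Foxm1, an activator of late cell cycle genes, did not pass in either fit. Mki67 was the most abundant member, at 1302, 489 and 1152 CPM in Hes1 KO replicates 1 to 3 and 1964 and 305 CPM in WT replicates 2 and 3. WT replicate 2 was above every Hes1 KO library and WT replicate 3 below every one. Its log2 fold change was -0.40 in the 5-library fit (SE 0.55, edgeR adjusted p = 0.616). Foxm1 was at 141, 66.3 and 139 CPM in Hes1 KO replicates 1 to 3 and 103 and 14.6 CPM in WT replicates 2 and 3, and WT replicate 2 fell within the Hes1 KO range. Its log2 fold change was 0.82 (SE 0.44, edgeR adjusted p = 0.215) there and -0.09 with 6 libraries, where WT replicate 1 had 23 counts of Foxm1 against 7.64 at the Hes1 KO mean.

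Of the 6 genes of the Cdk1 engine, Ccnb2 rose. Ccnb2, cyclin B2, was at 132, 105 and 144 CPM in Hes1 KO replicates 1 to 3, 30.2 CPM in WT replicate 1 (2 counts), and 73.1 and 20.6 CPM in WT replicates 2 and 3. The groups did not overlap. The log2 fold change was 1.09 in the 5-library fit (SE 0.20, edgeR adjusted p = 0.0329) and 1.34 with 6 libraries (edgeR adjusted p = 0.31). Cdk1 itself was at 151, 101 and 167 CPM in Hes1 KO replicates 1 to 3 and 93.6 and 6.44 CPM in WT replicates 2 and 3, again without overlap but with a wide gap between the WT libraries, and its log2 fold change of 1.49 had an adjusted p of 0.139 in edgeR. Ccna2, cyclin A2 (0.82), Ccnb1, cyclin B1 (1.32), and Cdc25c, a phosphatase that activates Cdk1 (a 2.83-fold difference), also had positive log2 fold changes that did not pass. Cdc25b is described with Ube2c below.

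The 3 mitotic kinase genes and Tpx2, which activates Aurora A, had log2 fold changes of 0.68 to 1.53, and none passed in the 5-library fit. Plk1, the Polo-like kinase of mitotic entry, had the smallest p of them. It was at 63.5, 31.4 and 74.1 CPM in Hes1 KO replicates 1 to 3, 30.2 CPM in WT replicate 1 (2 counts), and 31.1 and 4.13 CPM in WT replicates 2 and 3. Hes1 KO replicate 2 and WT replicate 2 were nearly level. The log2 fold change of Plk1 was 1.53 (SE 0.49, edgeR adjusted p = 0.0795). Aurka, the Aurora A kinase of the spindle poles (1.24), Tpx2 (0.92) and the centrosomal kinase Nek2 (0.68) followed.

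In the chromosomal passenger complex, which corrects faulty attachments at centromeres, Birc5 rose. Birc5, the subunit survivin, was at 113, 74.6 and 120 CPM in Hes1 KO replicates 1 to 3, 59.0 CPM in WT replicate 2 and 10.5 CPM in WT replicate 3. WT replicate 1 had 0 counts of it, which allows up to 58.1 CPM (Wilson 95% limit). The log2 fold change was 1.36 in the 5-library fit (SE 0.33, edgeR adjusted p = 0.0474) and 1.74 with 6 libraries (edgeR adjusted p = 0.41). The call of the 5-library fit was lost with RLE scaling, limma-voom and the older dispersion method of edgeR (adjusted p = 0.0513, 0.0572 and 0.0567). The kinase subunit Aurkb (1.23, edgeR adjusted p = 0.0658) and the further subunit Cdca8 (1.40, edgeR adjusted p = 0.0549) came close on the log2 scale. Incenp, the longest subunit, was at 207, 91.7 and 204 CPM in Hes1 KO replicates 1 to 3 and 186 and 43.8 CPM in WT replicates 2 and 3, and its log2 fold change was 0.24.

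Of the 5 spindle checkpoint genes, Mad2l1 and Bub3 rose. Mad2l1 encodes Mad2, which binds Cdc20 and blocks the anaphase-promoting complex. It was at 170, 105 and 154 CPM in Hes1 KO replicates 1 to 3 and 54.2 and 12.5 CPM in WT replicates 2 and 3. The lowest Hes1 KO library was above both, and the log2 fold change was 1.82 (SE 0.27, edgeR adjusted p = 0.03). WT replicate 1 was at 453 CPM (30 counts, Wilson 95% interval 318 to 647 CPM), where the Hes1 KO mean would give 9.46 counts, and with it the log2 fold change was 0.16 (edgeR adjusted p = 0.938). Bub3, a kinetochore adaptor of the checkpoint kinases, was at 132, 111 and 145 CPM in Hes1 KO replicates 1 to 3, 45.3 CPM in WT replicate 1 (3 counts), and 80.0 and 24.8 CPM in WT replicates 2 and 3. The groups did not overlap, but the Wilson 95% upper limit of WT replicate 1, 133 CPM, was above Hes1 KO replicates 1 and 2. The log2 fold change was 0.93 in the 5-library fit (SE 0.19, edgeR adjusted p = 0.0371) and 1.13 with 6 libraries (edgeR adjusted p = 0.316). The kinase genes Bub1 (0.97) and Ttk (1.21) and the pseudokinase gene Bub1b (0.95) had positive log2 values that did not pass, and in these 3 WT replicate 2 fell within the Hes1 KO range by CPM.

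Cdc20, the activator of the anaphase-promoting complex that the checkpoint restrains, was at 78.3, 50.7 and 87.2 CPM in Hes1 KO replicates 1 to 3, 15.1 CPM in WT replicate 1 (1 count), and 50.2 and 11.8 CPM in WT replicates 2 and 3. Its log2 fold change was 0.92 (SE 0.26, edgeR adjusted p = 0.0655), with the lowest Hes1 KO library just above WT replicate 2. None of the 5 kinetochore genes passed. Cenpa had the smallest p of these, at 118, 101 and 130 CPM in Hes1 KO replicates 1 to 3, 45.3 CPM in WT replicate 1 (3 counts), and 83.4 and 26.5 CPM in WT replicates 2 and 3. The groups did not overlap, but the Wilson 95% upper limit of WT replicate 1, 133 CPM, was above every Hes1 KO library. The log2 fold change of Cenpa was 0.70 (SE 0.19, edgeR adjusted p = 0.058). Ndc80 and Nuf2, partners in the complex that grips microtubules, had log2 fold changes of 0.94 and 1.25. Cenpe, a kinetochore kinesin, and Cenpf were close to 0, at 0.23 and 0.03.

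Among the kinesins, Kif2c, which takes microtubule ends apart, had the smallest p. It was at 53.8, 29.9 and 59.7 CPM in Hes1 KO replicates 1 to 3, 0 in WT replicate 1, and 33.2 and 3.63 CPM in WT replicates 2 and 3. WT replicate 2 lay within the Hes1 KO range, and the log2 fold change was 1.28 (SE 0.50, edgeR adjusted p = 0.12). Kif11, which pushes the spindle poles apart, and Kif4, a chromosome-borne motor, had log2 fold changes of 0.48 and 0.43. Of the 6 genes of the central spindle and cytokinesis, none passed, and the values ran from 0.11 for Ect2, the activator of RhoA at the cleavage furrow, to 1.21 for its partner Racgap1. Racgap1 was at 230, 129 and 216 CPM in Hes1 KO replicates 1 to 3, 302 CPM in WT replicate 1 (20 counts), and 131 and 18.9 CPM in WT replicates 2 and 3 (SE 0.40, edgeR adjusted p = 0.0884). With 6 libraries the log2 fold change of Racgap1 was 0.61 (edgeR adjusted p = 0.597). Ect2 was at 90.1, 32.7 and 74.9 CPM in Hes1 KO replicates 1 to 3 and 116 and 6.94 CPM in WT replicates 2 and 3, so that WT replicate 2 was above every Hes1 KO library.

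The condensin and topoisomerase genes, whose products compact and untangle chromosomes, included the most abundant members after Mki67. Top2a was at 1075, 432 and 1033 CPM in Hes1 KO replicates 1 to 3 and 923 and 103 CPM in WT replicates 2 and 3, and Smc4 was at 822, 366 and 663 CPM and 648 and 123 CPM. In both genes WT replicate 2 lay between the Hes1 KO libraries. Smc2, the partner of Smc4, had the smallest p of the class. It was at 374, 151 and 288 CPM in Hes1 KO replicates 1 to 3, 423 CPM in WT replicate 1 (28 counts), and 231 and 31.5 CPM in WT replicates 2 and 3, with a log2 fold change of 0.90 (SE 0.48, edgeR adjusted p = 0.216). None of these 5 genes passed. Per kilobase of coding sequence, the mean Hes1 KO level ran from 11.7 CPM for Cenpf to 289 CPM for Cenpa, with Top2a at 185, Mki67 at 103 and Cdk1 at 157.

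Cdc25b and Ube2c stood apart from the other members, a choice made after their values were seen. Cdc25b, a phosphatase that starts Cdk1 activation at the centrosome, was at 87.0, 56.1 and 149 CPM in Hes1 KO replicates 1 to 3, 0 in WT replicate 1, 128 CPM in WT replicate 2 and 872 CPM in WT replicate 3. WT replicate 3 was 5.86 times the highest of the other 4 libraries. Ube2c, the ubiquitin-conjugating enzyme of the anaphase-promoting complex, was at 95.9, 57.0 and 123 CPM in Hes1 KO replicates 1 to 3, 15.1 CPM in WT replicate 1 (1 count), 21.8 CPM in WT replicate 2 and 347 CPM in WT replicate 3. The WT libraries thus lay on either side of the Hes1 KO libraries for Ube2c. The log2 fold changes in the 5-library fit were -3.67 for Cdc25b (SE 1.12, edgeR adjusted p = 0.074) and -2.38 for Ube2c (SE 1.24, edgeR adjusted p = 0.204). Without WT replicate 3 and with WT replicate 1 kept, they were 0.46 and 2.38. Without WT replicates 1 and 3 they were -0.19 and 2.28 (edgeR adjusted p = 0.739 and 0.0091). The log2 fold change of Ube2c was also above 0 in 2 of the alternatives that kept all 6 libraries, limma-voom with quality weights (0.15) among them.

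These 2 genes made up 37.4% and 14.9% of the member sum of WT replicate 3, against at most 1.81% for either in the other libraries. Without them the sum of that library was 1110 CPM in place of 2329. The ratio of the member sum to the summed CPM of 38 DNA replication and S phase genes was 1.23, 0.932 and 1.25 in Hes1 KO and 1.42 in WT replicate 2, and in WT replicate 3 it was 2.12 with the pair and 1.01 without it. Of 148 other cell cycle genes, 4 were also highest in WT replicate 3. These were Tfdp2, a DNA-binding partner of E2F factors (1774 CPM, 14.0 times the next library), Pttg1, securin (127 CPM, 6.78 times), Fzr1, the late-mitotic activator of the anaphase-promoting complex (281 CPM, 3.86 times), and Nusap1, a spindle protein (317 CPM, 1.74 times). The last 3 were named after their values were seen. This is also the library with the 424508 CPM of erythroid markers, and the part of erythroid cells in these 6 levels was not tested.

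**Figure D4:**
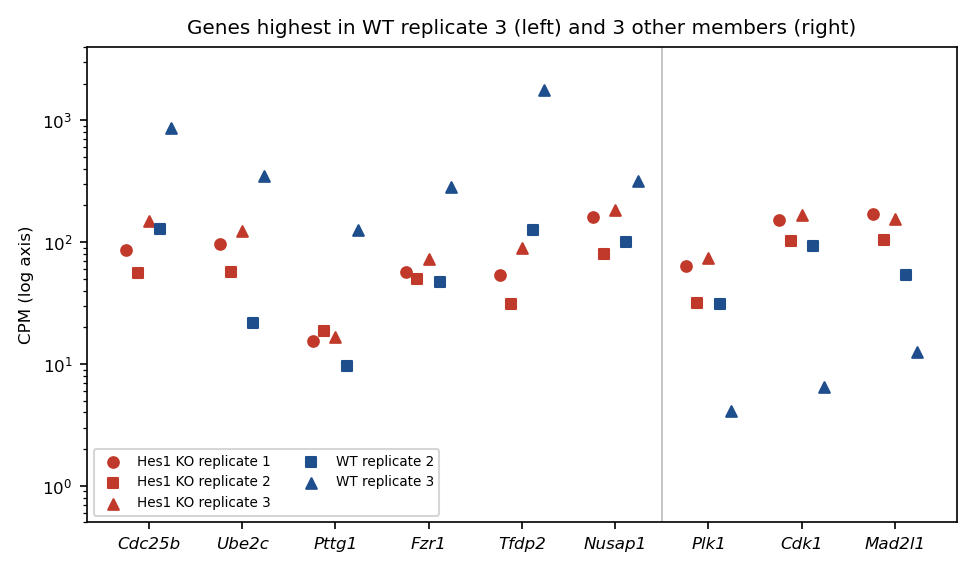
CPM (log axis) in the 5 deeper libraries of the 6 genes that were highest in WT replicate 3 (left of the line) and of 3 members that were lowest there (right), red for Hes1 KO and blue for WT. WT replicate 3 (blue triangles) lies above all others from Cdc25b, at 872 CPM, to Nusap1 and below all others for Plk1, Cdk1 and Mad2l1.

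WT replicate 2 differed from Hes1 KO in a way that followed the length of the coding sequence, a property examined after the values were seen. The lengths come from the GENCODE vM21 annotation by symbol and run from 0.402 kb (Cenpa) to 9.531 kb (Mki67). All 4 members that rose are among the 9 shortest: Birc5 (0.420 kb), Mad2l1 (0.615 kb), Bub3 (0.978 kb) and Ccnb2 (1.194 kb). On the log2 scaled CPM scale, WT replicate 2 was below the Hes1 KO mean for 16 of 16 members under 1.5 kb, with a median difference of -0.77. Among 13 members of 3 kb or more it was above that mean for 9, with a median of 0.10. Over all tested genes the median difference was -0.53 under 1.5 kb and 0.45 at 3 kb or more. Mki67 (0.91), Cenpf (0.56) and Cenpe (0.30), the longest coding sequences, were on the high side, and Ube2c (-2.18) and Mad2l1 (-1.57) were lowest.

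**Figure D5:**
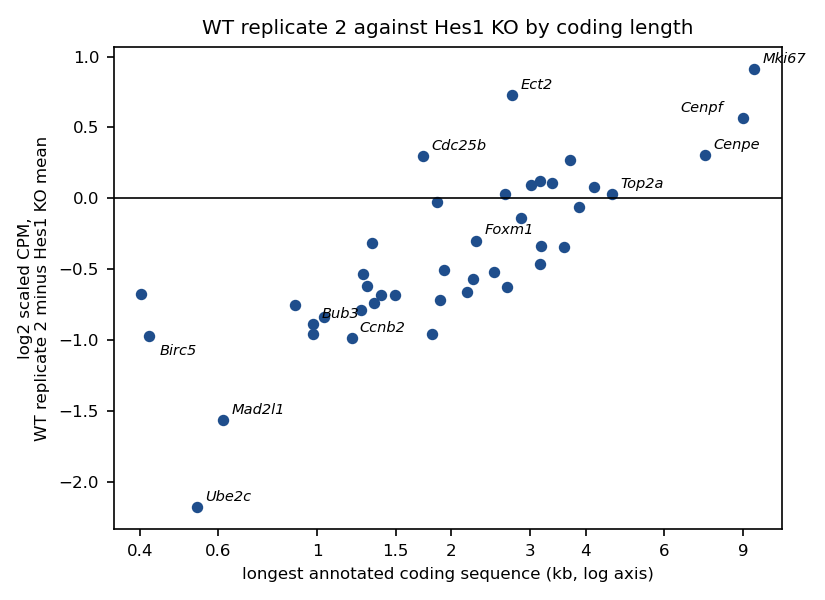
Difference in log2 scaled CPM between WT replicate 2 and the mean of the 3 Hes1 KO libraries for each of the 42 members (points), against the longest annotated coding sequence in kb (log axis). The line at 0 marks equal levels, and all 16 members under 1.5 kb lie below it.

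Over the 42 members this difference had a Spearman rho of 0.82 with coding length (Pearson r 0.80 with log2 length). With the length of the longest transcript the values were 0.63 and 0.57. For WT replicate 3 rho was 0.28 with coding length over the 40 members without Cdc25b and Ube2c. Hes1 KO replicate 2 against the mean of replicates 1 and 3 gave a rho of -0.68 over the members. These correlations are across genes of the same libraries, which are not independent replicates. The median log2 fold change of the 5-library fit was 1.23 for the 16 members under 1.5 kb, 0.92 for the 13 between, and 0.48 for the 13 of 3 kb or more.

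The same direction was present outside the set. A coding length was found for 12788 tested genes (96.9% of the tested genes that RefSeq calls protein-coding have one). Over these genes rho was 0.38 for WT replicate 2 and 0.11 for WT replicate 3 against Hes1 KO. For Hes1 KO replicate 2 against the other Hes1 KO libraries rho was -0.30. Of all tested genes under 1.5 kb, 12.4% were called higher and 4.18% lower in the 5-library fit, and of those of 3 kb or more 2.27% and 13.5%. In each coding length class the members' median log2 fold change was above that of all genes, which was 0.36 under 1.5 kb, 0.00 between, and -0.35 at 3 kb or more. Lengths within a class were not matched between members and all genes. Of the 18 members with Hes1 KO above WT replicates 2 and 3 by scaled CPM, 14 were under 1.5 kb. The part of transcript length, RNA quality or library preparation in the member levels was not tested.

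WT replicate 1 gave few counts per member. It had 0 counts for 10 of the 42 members, for which the Hes1 KO mean would give 2.31 to 10.1 counts, and 5 or fewer for 29. The highest were Mki67 with 63 counts (64.9 at the Hes1 KO mean), Smc4 with 35 (40.8), Kif11 with 34 (18.4) and Mad2l1 with 30. Top2a had 17 counts where 56.0 would be given. Levels there thus lay on both sides of the Hes1 KO mean. The Wilson 95% lower limits there were 232 CPM for Foxm1, 318 for Mad2l1, 368 for Kif11 and 32.3 for Cdc25c. Each was above the highest Hes1 KO library (141, 170, 341 and 23.1 CPM). The Wilson 95% upper limit was 58.1 CPM for Kif23, with 0 counts, and 85.6 CPM for Cdk1, with 1 count. Each was below the lowest Hes1 KO library (92.0 and 101 CPM). The upper limits of Ccna2, Birc5, Aurkb and Top2a also lay below every Hes1 KO library. For a member such as Ccnb1, with 0 counts and the same upper limit of 58.1 CPM, the Hes1 KO libraries at 19.4 to 44.2 CPM lay within that limit, so no difference was detectable at this depth.

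Other genes of the same pathways were taken from lists by role. Of 87 other mitosis genes, 8 rose and 0 fell in the 5-library fit, with a median log2 fold change of 0.59. This is 9.20% called higher, near the 7.44% of all genes. Cenpw (2.65), Spc24 (1.81) and Cenph (1.16) of the kinetochore, the condensin II subunit gene Ncaph2 (0.79), the Cdk phosphatase gene Cdkn3 (1.53), the Cdk-binding subunit gene Cks1b (1.39), Cdca3, a trigger of mitotic entry (1.35), and Anapc11, the catalytic RING subunit of the anaphase-promoting complex (1.63), are these 8 (edgeR adjusted p = 0.0294 to 0.048). Of the 25 spindle and kinesin genes none passed, the smallest p being those of Depdc1b (0.91, edgeR adjusted p = 0.0744) and Gtse1 (1.25, edgeR adjusted p = 0.0889). Spc24 had 483.6 CPM in WT replicate 1, and with that library its log2 fold change was -0.77.

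Of the 38 DNA replication and S phase genes, 8 rose (21.1%, against 7.44% of all genes) and 0 fell, with a median of 0.76. Gins2, a subunit of the replicative helicase (1.59), and the clamp loader genes Rfc2 (1.20), Rfc5 (1.17) and Rfc4 (1.00) had the smallest p. Of 23 regulators, 1 rose (4.35%), Cdk4, the kinase of the G1 phase (0.87, edgeR adjusted p = 0.0465), and 0 fell. Among the DREAM and MuvB genes none of 13 passed, with Tfdp2 at -5.41 (edgeR adjusted p = 0.0553) and Rb1, the retinoblastoma gene, at -0.89 (edgeR adjusted p = 0.0556). Of the 17 of these 148 genes that rose, 15 had a coding sequence under 1.5 kb and 0 had one of 3 kb or more, where the whole list holds 71 and 20. With 6 libraries 0 of the 148 passed in edgeR.

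The counting may also have touched single members. Exons of 11 of the 42 overlap exons of another gene in the annotation, among them Foxm1, Ccna2, Cdc25b, Plk1, Cdc20 and Ube2c, and no source used here gives the strand setting of the authors' counting. Without it, reads of a pair on opposite strands cannot be told apart. The genes that overlap Foxm1 lie on the same strand, where a strand setting would not separate them.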

How the data were processed

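RNA-seq of 6 libraries gave 1 table of whole-number read counts per gene symbol (26988 genes), which the authors made by featureCounts, per the deposited table's name, and the submitters' processing notes name edgeR, limma and the build GRCm39. No source used here gives the aligner, annotation or strand setting. Totals were 66167 to 22131465 counts per library, and intervals cover counting error only.

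Groups and replicate numbers came from the sample titles. Hes1KO was compared with WT by edgeR 4.0.16 (R 4.3.3): filterByExpr, TMM scaling, quasi-likelihood fit with the legacy option off, Benjamini-Hochberg adjustment over all genes tested and a threshold of 0.05. The SE was taken as the log2 fold change over the root of its F statistic. CPM is the count per 1000000 of the library total, and scaled CPM is CPM divided by the TMM factor. Log2 differences of scaled CPM used a pseudocount of 0.5. Scripts were tested on simulated counts. Alternatives were other scalings and filters, DESeq2 1.42.0, limma-voom (limma 3.58.1), quality weights, robust and legacy fits, other thresholds, the replicate block and each library left out. Those combined with leaving out WT replicate 1 were chosen after seeing the data.

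The members and gene lists were chosen with earlier results of these data known. Full statistics are given for members that passed in either fit or, in a role class with none, for the member with the smallest p in the 5-library fit, and for up to 4 passing genes of each other list or else the 2 with the smallest p, with Hes1 always. Promoters and coding lengths were matched by symbol (34 and 42 of 42 members), with no coordinates of the authors' build used. No pair of libraries in a group agreed within sampling noise (chi-square per degree of freedom 19.2 to 513.9).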

Additional observations from a re-analysis of the deposited data

How the results depend on the processing

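Under the other scalings, filters, tools, dispersion options, thresholds and the replicate block with all 6 libraries, 0 members passed, and the members' median log2 fold change stayed positive. The median over all genes moved from 0.03 to -0.09 with RLE factors, 0.26 with library size alone and -0.13 with DESeq2. DESeq2 called 793 genes, 2 of them other mitosis genes, and Hes1 at -2.34. Leaving out each library in turn gave 0 to 4 members, 0 to 2513 genes, 0 to 8 other mitosis genes, 0 to 8 S phase genes and 0 to 1 regulators, the highest of each without WT replicate 1, where Hes1 was at -2.55 (range -2.55 to -1.62).

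With WT replicate 1 left out, the members called higher were 3 with RLE factors, 9 with DESeq2 (1 lower, Cdc25b), 3 with limma-voom, 3 with legacy dispersions, 4 without erythroid markers, 7 with WT replicate 3 left out too, and 28 with WT replicate 2 left out too (2 lower, median 1.66). They were 0 with library size alone or with any Hes1KO library left out too, where 0 of all genes passed. Of the 16190 genes, 2430 passed with RLE factors, 4997 with DESeq2, 1440 with limma-voom and 1710 with legacy dispersions, against 2513. In the fits with a lone WT library, that library is assumed to vary like the Hes1KO ones.

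Same-numbered libraries of the 2 groups correlated at 0.15, -0.01 and 0.29 in their deviations from the group means. For numbers 1 and 3 this was the highest correlation of both libraries with the other group, and for number 2 it was not. With 1 pair per number, whether the numbers mark a shared batch or pairing was not tested. With the replicate block 0 members passed with 6 libraries (median 1.18) and 0 in the 5-library fit.

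Several single genes changed sign, and the cause was not tested. Mad2l1 was at -0.20 with library size alone and, with each library left out in turn, ran from -0.30 (without WT replicate 2) and -0.23 (without WT replicate 3) to 1.82. Foxm1 was at 0.042 without a filter, 0.49 with limma-voom, 0.79 with quality weights, 0.15 with the replicate block, 0.05 without Hes1KO replicate 2 and -0.48 to 0.82 over the libraries left out, the highest without WT replicate 1. Ube2c was at 0.15 with quality weights, 0.69 with the replicate block and -2.60 to 2.38 over the libraries left out, the highest without WT replicate 3, where Cdc25b was at 0.46 (lowest -3.83). Spc24 was at 1.26 with limma-voom, 1.61 with quality weights, 0.57 with the replicate block and 1.81 without WT replicate 1 (lowest -1.37). Gtse1 was at 0.91, 1.25, 0.25 and 1.25 under these (lowest -0.64), and at 0.33 with legacy dispersions. Rb1 was at 0.27 under the replicate block, 0.15 with library size alone and 0.13 without WT replicate 3 (lowest -0.89). The 66167 counts of WT replicate 1 limit each comparison that includes it.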
